A study of Mus musculus with 4 samples.

Results

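Heparan sulfate synthesis enzymes were examined as 10 named genes of the 22063 listed in the expression table, in RNA-sequencing of TKPTS cells. They cover the linker xylosyltransferases Xylt1 and Xylt2, the chain enzymes Ext1, Ext2 and Extl3, the N-deacetylase/N-sulfotransferases Ndst1 and Ndst2, the epimerase Glce, and the O-sulfotransferases Hs2st1 and Hs6st1. The genes were picked by symbol with their levels and their change between the libraries already known, so both are given below as a description and no p-value is attached to them. All 10 symbols were found, and 9 passed the filter on low counts, the exception being Xylt1.

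TKPTS (TKPT in the sample labels) is an immortalised mouse line of proximal tubule epithelial cells, recorded with a wild-type genotype. All cells were held for 24 h at 1% O2 and 5% CO2 and then returned to normal oxygen for 12 h. The libraries labelled si-NC (replicates 2 and 3, scrambled siRNA) were compared with the libraries labelled si-Itgb6 (replicates 1 and 3, siRNA against Itgb6, the beta6 chain of integrin alphav-beta6), and no library of untransfected or normoxic cells was analysed here. The comparison asks how transcripts in hypoxic tubule cells differ after the Itgb6 siRNA. The labels do not say whether replicates came from separate cultures, so the spread between them may be technical.

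Heparan sulfate is a long sugar chain carried by proteoglycans on the cell surface and in basement membranes. A xylosyltransferase starts the linker on a serine of the core protein, Extl3 adds the first N-acetylglucosamine, and the Ext1-Ext2 complex then extends the chain with glucuronic acid and N-acetylglucosamine. Ndst enzymes replace acetyl by sulfate groups in stretches of the chain, and within these stretches Glce converts glucuronic to iduronic acid and Hs2st1 and Hs6st1 add sulfate at the 2-O and 6-O positions. The resulting pattern binds growth factors, chemokines and matrix proteins, and in the kidney the chains are abundant in the basement membranes of glomeruli and tubules.

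Promoters are shown for Xylt2, Hs6st1, Ext2 and Glce, whose libraries lay apart between the groups with a log2 fold change of more than its SE. Ndst2 also lay apart, but with a log2 fold change no larger than its SE, and its window is not shown. RefSeq promoter windows on GRCm38.p6, reaching from 250 bases before to 50 bases after the start, were found for 6 of the 10 genes, and not for Xylt1, Ext1, Extl3 and Ndst1. The Xylt2 window lies on the minus strand at chr11:94677444-94677743, that of Hs6st1 on the plus strand at chr1:36068150-36068449, that of Ext2 on the minus strand at chr2:93822519-93822818 and that of Glce on the minus strand at chr9:62122560-62122859. Each is written 5′ to 3′ in the direction of transcription. Capitals mark the GC box (GGGCGG, or CCGCCC on the other strand) in Xylt2, Hs6st1 and Glce, and in Ext2 the TEAD motif GGAATG followed by CACGTG, in which the hypoxia-response core ACGTG is read on both strands.
Xylt2: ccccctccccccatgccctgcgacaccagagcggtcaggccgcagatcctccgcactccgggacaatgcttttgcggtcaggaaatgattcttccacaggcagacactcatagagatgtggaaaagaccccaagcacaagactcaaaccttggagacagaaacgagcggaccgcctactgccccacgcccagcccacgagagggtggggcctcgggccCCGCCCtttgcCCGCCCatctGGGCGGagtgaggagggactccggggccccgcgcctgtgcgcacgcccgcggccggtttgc
Hs6st1: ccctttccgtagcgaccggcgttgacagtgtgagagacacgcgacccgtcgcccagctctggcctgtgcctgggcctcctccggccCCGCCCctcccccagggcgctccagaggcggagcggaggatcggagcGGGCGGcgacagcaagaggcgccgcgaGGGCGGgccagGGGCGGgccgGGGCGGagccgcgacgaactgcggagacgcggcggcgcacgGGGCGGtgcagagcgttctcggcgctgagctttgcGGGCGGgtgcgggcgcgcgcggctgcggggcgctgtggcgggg
Ext2: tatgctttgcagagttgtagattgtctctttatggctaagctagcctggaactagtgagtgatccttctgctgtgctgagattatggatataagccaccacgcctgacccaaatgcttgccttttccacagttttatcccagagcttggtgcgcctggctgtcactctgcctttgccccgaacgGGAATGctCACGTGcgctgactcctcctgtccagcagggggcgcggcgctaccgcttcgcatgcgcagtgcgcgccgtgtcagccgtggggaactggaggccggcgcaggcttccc
Glce: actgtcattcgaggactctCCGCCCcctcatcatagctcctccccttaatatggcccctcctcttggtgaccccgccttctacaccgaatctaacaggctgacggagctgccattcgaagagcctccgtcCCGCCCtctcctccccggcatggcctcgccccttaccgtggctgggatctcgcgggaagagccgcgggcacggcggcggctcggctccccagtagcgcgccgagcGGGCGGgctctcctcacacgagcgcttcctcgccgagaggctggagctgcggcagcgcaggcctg
The GC box occurred 3 times in the Xylt2 window, 7 times in Hs6st1, 3 times in Glce, 3 times in Ndst2 and 2 times in Hs2st1, and was not found in Ext2, against 35.7% of all 32851 promoter windows with at least 1. Ext2 alone of the 6 windows held ACGTG, which occurred in 19.6% of all windows, while the other form of the hypoxia-response core, GCGTG, occurred in 5 of the 6 (all but Glce) and in 32.4% of all windows. GGAATG occurred in Ext2 and Ndst2 and in 14.7% of all windows. None of the 6 windows held TATAAA (13.6% of all windows), the AP-1 letters TGAGTCA (5.2%) or the ETS letters CCGGAAG (8.9%), each searched on both strands. GC content of the 6 windows ranged from 58% in Ext2 to 78.0% in Hs6st1, above the median of 52.7% over all windows. The GC box was present in Xylt2 and Hs6st1, whose CPM values were lower in the si-Itgb6-labelled libraries, and also in Glce, whose values were higher. These matches describe the letters of each window and are no evidence of binding.

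The libraries held between 15435087 and 17220285 estimated counts, and 11727 genes passed the filter and were tested. Itgb6 itself, the target of the siRNA, had 285 and 284 counts in the libraries labelled si-NC and 279 and 260 in those labelled si-Itgb6, with a log2 fold change of -0.0051 (SE 0.13, edgeR adjusted p = 0.991). No fall of the target transcript was thus seen in the libraries labelled si-Itgb6 (95% interval -0.27 to 0.26), so it does not bear out the labels. The study reported, by western blot, less integrin alphav-beta6 protein in hypoxic TKPTS cells given this siRNA. Every direction below is that of the libraries as labelled. Of 14 proximal tubule markers, 7 had at most 20 counts in every library. Among these, Slc34a1, Slc5a2, Slc5a12, Slc22a6 and Slc22a8 had 0 counts in all libraries, Lrp2 had 2 to 17 and Hnf4a 0 to 1. Pax8 (4682 to 5884 counts), Havcr1 (3791 to 4501 counts) and Cdh16 (2106 to 2695 counts) were abundant. Aqp1, a water channel of the proximal tubule, rose by 0.59 on the log2 scale (SE 0.10, edgeR adjusted p = 0.000617). Summed levels of 7 simple epithelial markers were 2997 and 2991 FPKM in the libraries labelled si-NC and 2836 and 2862 FPKM in those labelled si-Itgb6, with 5 of the 7 lower without overlap, where 25.4% of all genes tested were, and none called. Of 7 fibroblast markers only Pdgfrb passed the filter, with 52 and 55 counts in the libraries labelled si-NC and 35 and 47 in those labelled si-Itgb6. Col1a1 had 0 and 1 counts against 22 and 2. The 22 counts came from si-Itgb6 replicate 1, which also held 11 of Col1a2 and 14 of Col3a1, against 0 to 1 in each other library. Pdgfra had 0 and 4 counts against 2 and 4. The part of these marker differences in the results below was not tested.

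Levels were compared between enzymes per transcript length, as FPKM, fragments scaled by transcript length and library size. The chain polymerases stood highest, with mean levels over the 4 libraries of 30.2 FPKM for Ext1 and 21.1 FPKM for Ext2, and their ranges over libraries lay apart (27.5 to 33 against 19.2 to 23 FPKM). Extl3, which starts the same chain, had a mean level of 2.84 FPKM. The FPKM level of Ext2 relative to that of Extl3 was 6.09 and 8 in the libraries labelled si-NC and 7.69 and 8.62 in those labelled si-Itgb6. The size of this ratio rests on the length used, since as CPM per kilobase of all exons it was 2.11 and 2.73 against 2.62 and 3.09.

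The 3 enzymes of chain modification with like levels shared the next rank. Mean levels were 9.65 FPKM for Glce, 9.25 FPKM for Ndst1 and 9.08 FPKM for Hs6st1, and their ranges over libraries overlapped. Their distance from Ext2 rests on the length used. As CPM per kilobase of all exons, Glce had a mean of 6.75 and Ext2 one of 7.21, and these 2 overlapped. Hs2st1 followed with a mean level of 5.45 FPKM and Xylt2 with 4.27 FPKM, the lowest Hs2st1 level and the highest Xylt2 level both rounding to 5.24 FPKM. Below them the ranges of Xylt2 and Extl3 overlapped, as did those of Extl3 and Ndst2, whose mean level was 2.33 FPKM. Among all genes tested, the mean FPKM level stood at percentile 77.2 for Ext1, 50.5 for Ndst1, 33.4 for Xylt2 and 22.5 for Ndst2. Xylt1 had 0 and 1 counts in the libraries labelled si-NC and 1 and 0 counts in those labelled si-Itgb6, so that Xylt2 supplied nearly all the xylosyltransferase transcripts counted in these cells.

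**Figure D1:**
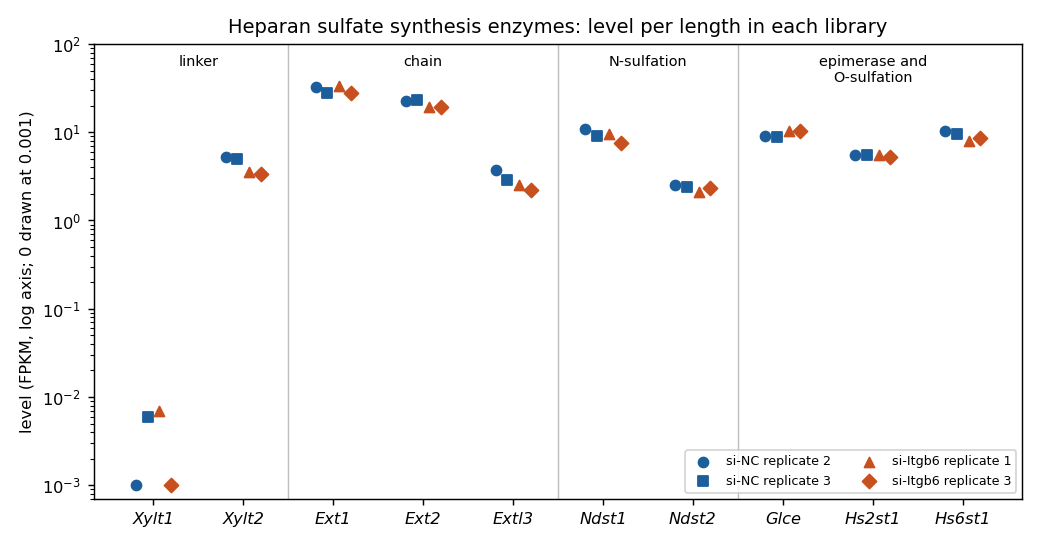
Level per length of each enzyme (FPKM, log axis) in the 4 libraries, ordered by step of synthesis; circles and squares are libraries labelled si-NC, triangles and diamonds those labelled si-Itgb6. Ext1 and Ext2 lie highest at 19.2 to 33 FPKM, 7 enzymes lie between 2.09 and 10.8 FPKM, and Xylt1 lies at or near 0.

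Change between the groups was measured on normalised counts (CPM, counts scaled to a common library size after TMM normalisation). A gene is called here when the edgeR quasi-likelihood p was under 0.05 and the fold change exceeded 1.2, the thresholds of the study. The study, which also names edgeR, reported fewer genes in each direction, so the calls here need not match its list. Of the 9 enzymes tested, 4 were called lower in the si-Itgb6-labelled libraries (Xylt2, Extl3, Ndst1 and Hs6st1) and 0 higher. Over all genes tested, 5.2% were called lower and 4.37% higher. CPM values lay apart between the groups for 7 enzymes, 6 of them lower and 1 higher in the libraries labelled si-Itgb6, where 25.4% of all genes tested lay apart lower and 23.8% apart higher. The median log2 fold change of the 9 enzymes was -0.202, against 0.000 for all genes tested. These counts repeat the contrast on which the genes were chosen and are given for scale only. In libraries of whole cultures, fewer cells of a kind and less RNA per cell cannot be told apart.

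At the linker step, Xylt2 (ENSMUSG00000020868; GRCm38 chr11:94663851-94677515) had CPM values of 17.9 and 17.1 in the libraries labelled si-NC and 12 and 11.7 in those labelled si-Itgb6. Both si-Itgb6 values lay well below both si-NC values, and replicates differed little. The log2 fold change was -0.57 (SE 0.14), which is the largest in size among the enzymes, and it ranged from -0.59 to -0.53 when each library was left out in turn. Levels per length moved alike, from 5.24 and 4.99 FPKM to 3.5 and 3.34 FPKM.

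At the chain step the 3 enzymes moved unequally. Ext1 (ENSMUSG00000061731; GRCm38 chr15:53064038-53346159), the main catalytic subunit of the polymerase, had CPM values of 107 and 97.3 in the libraries labelled si-NC and 108 and 101 in those labelled si-Itgb6. The groups overlapped, with a log2 fold change of 0.04 (SE 0.07). Ext2 (ENSMUSG00000027198; GRCm38 chr2:93661028-93822568), its partner in the complex, had CPM values of 56.4 and 56.7 against 47.8 and 50.4. Its groups lay apart, with a log2 fold change of -0.20 (SE 0.08) and a fold of 0.869 that stayed inside the threshold of 1.2. The FPKM level of Ext1 relative to that of Ext2 was 1.44 and 1.2 in the libraries labelled si-NC and 1.69 and 1.44 in those labelled si-Itgb6, values that meet at 1.44. As CPM per kilobase of all exons, where the length is the same in every library, the ratio was 1.72 and 1.56 against 2.06 and 1.83 and the groups lay apart. The effective length of Ext1 implied by count and FPKM ranged from 3288 to 3630 bases between libraries.

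Extl3 (ENSMUSG00000021978; GRCm38 chr14:65052060-65149855) had CPM values of 22.1 and 17.2 in the libraries labelled si-NC and 15.1 and 13.5 in those labelled si-Itgb6. The groups lay apart, but the si-NC replicates differed from each other more than the nearer of them differed from the higher si-Itgb6 library. The log2 fold change was -0.46 (SE 0.14). Without si-NC replicate 2 it was -0.27 and no longer called, and over all libraries left out in turn it reached -0.63.

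For N-sulfation, Ndst1 (ENSMUSG00000054008) was the more abundant of the pair, with an FPKM level 3.27 to 4.56 times that of Ndst2 in the same library. Its CPM values were 58.9 and 48.3 in the libraries labelled si-NC and 46.1 and 42 in those labelled si-Itgb6. The highest si-NC library set much of the distance, and the log2 fold change of -0.28 (SE 0.09) became -0.14 without si-NC replicate 2 and was then not called, as was the value of -0.21 with si-Itgb6 replicate 3 left out. On the FPKM scale the Ndst1 groups overlapped (10.8 and 9.06 against 9.53 and 7.57 FPKM), the effective length implied by count and FPKM being 4849 bases in si-Itgb6 replicate 1 and 5346 to 5471 bases in the others. Ndst2 (ENSMUSG00000039308; GRCm38 chr14:20723730-20734562) had CPM values of 9.14 and 9.09 against 7.69 and 8.44, with a log2 fold change of -0.18 and an SE of 0.18, as large as the change.

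The epimerase and O-sulfation enzymes did not share a direction. Glce (ENSMUSG00000032252; GRCm38 chr9:62057248-62122655), which makes iduronic acid, had CPM values of 43 and 42.3 in the libraries labelled si-NC and 48.6 and 50.4 in those labelled si-Itgb6. It was the 1 enzyme whose groups lay apart upward, with a log2 fold change of 0.21 (SE 0.09) and a fold of 1.16 that stayed inside the threshold. An exon of Glce overlaps Mir5133 on the same strand.

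Hs2st1 (ENSMUSG00000040151; GRCm38 chr3:144429706-144570181), the uronyl 2-O-sulfotransferase, had CPM values of 33.7 and 34.3 against 34 and 32.8. These groups overlapped, with a log2 fold change of -0.03 (SE 0.10). Hs6st1 (ENSMUSG00000045216; GRCm38 chr1:36068400-36106446), which sulfates glucosamine at the 6-O position, had CPM values of 38.1 and 35.6 against 29.2 and 32.1, so its groups lay apart. Its log2 fold change was -0.26 (SE 0.10) and its fold of 0.833 sat at the threshold itself, and the call was lost at a log2 fold change of -0.26 with DESeq2, with RLE scaling and with a filter of 10 counts in every library, and also without si-NC replicate 2 (-0.21) or with si-Itgb6 replicate 1 left out (-0.20). The libraries carry no strand information, so reads of Gm37335, whose exons overlap Hs6st1 on the opposite strand, cannot be told apart.

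**Figure D2:**
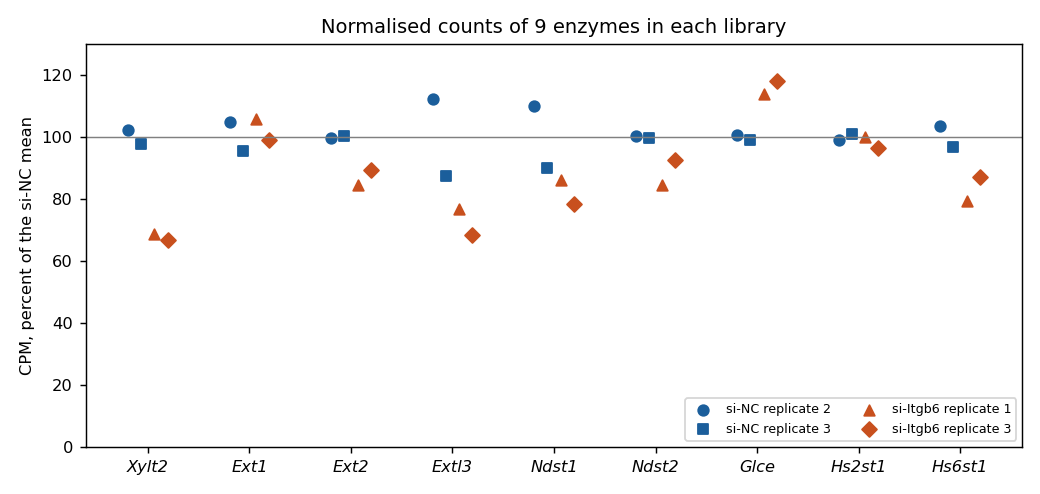
CPM of the 9 enzymes tested in each library, as percent of the mean of the 2 libraries labelled si-NC (grey line at 100); symbols mark the 4 libraries as in the legend. Xylt2 shows the widest gap between groups, Glce is the enzyme with both si-Itgb6 libraries above both si-NC libraries, and Extl3 and Ndst1 show the widest spread between the si-NC replicates.

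Ratios within a library do not depend on scaling between libraries. The FPKM level of Glce relative to that of Hs6st1 was 0.888 and 0.925 in the libraries labelled si-NC and 1.29 and 1.22 in those labelled si-Itgb6. The order of these enzymes was thus opposite in the 2 groups, with Hs6st1 above Glce in both si-NC libraries and below it in both si-Itgb6 libraries. Relative to Xylt2, the FPKM level of Glce was 1.75 and 1.78 against 2.9 and 3.11, and that of Ext1 was 6.26 and 5.51 against 9.41 and 8.25. These ratios come from the contrast that chose the genes and show unequal change within a library, without saying which gene of a pair moved. Each sets a gene of low GC content (Glce 44.0%, Ext1 44.1%) over one of higher GC content (Hs6st1 57.7%, Xylt2 60.4%). The trend on GC content across all genes, given next, was not removed from them.

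The log2 fold changes of the enzymes differed between transcripts of higher and lower GC content. The 6 enzymes with a GC content of 53.1% to 60.4% in the longest transcript all had negative log2 fold changes, from -0.57 to -0.18, whereas the 3 with 44.0% to 45.5% (Ext1, Glce and Hs2st1) lay between -0.03 and 0.21. Within the 6, the order was not that of GC content, with Extl3 (54.2%) at -0.46 and Hs6st1 (57.7%) at -0.26. Across all genes tested, log2 fold change fell with rising GC content, with Spearman's rho of -0.364 across genes, which are not independent replicates. Genes of 40% to 46% GC had a median log2 fold change of 0.068, those of 54% to 58% GC -0.082, and those of 58% to 62% GC -0.117. In the last range, which holds Xylt2, 14.9% of genes were called lower and 1.59% higher. In the range of 54% to 58%, which holds Extl3, Ndst1, Ndst2 and Hs6st1, 8.85% were called lower and 1.57% higher.

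With the trends on GC content and length removed, the median log2 fold change of the 9 enzymes was -0.138. Xylt2 was then at -0.41 and Extl3 at -0.39, both still called lower, while Ndst1 at -0.21 and Hs6st1 at -0.14 were not. Ext2 was at -0.14, Ndst2 at -0.07 and Glce at 0.18. Whether GC content had a part in the remaining differences was not tested.

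**Figure D3:**
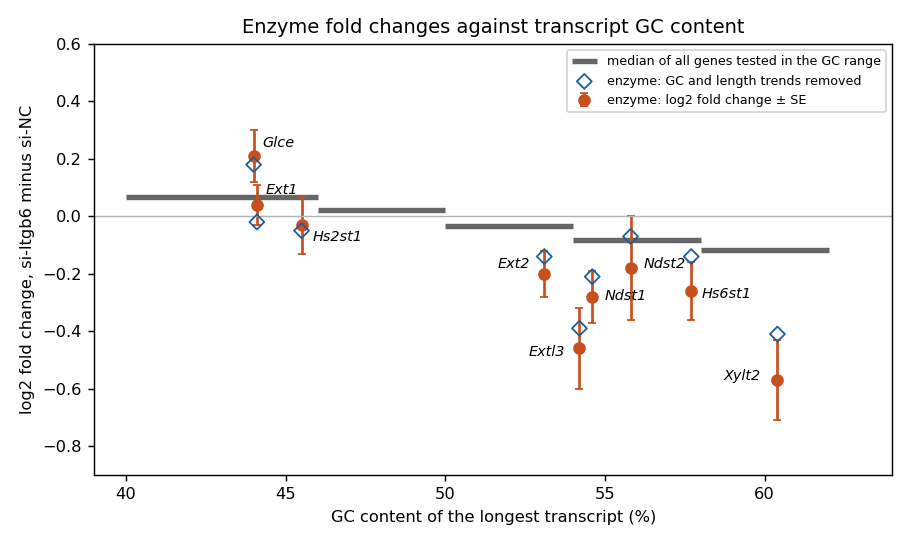
Log2 fold change of the 9 enzymes (si-Itgb6 minus si-NC; orange circles with SE) against the GC content of the longest transcript, with the value after removal of GC and length trends (open blue diamonds) and the median of all genes tested in each GC range (grey bars). The 6 enzymes above 50% GC lie below 0, as do the grey bars there, and Xylt2 and Extl3 remain lowest after removal of the trends at -0.41 and -0.39.

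Further genes of the pathway were taken as 70 genes in 7 lists, of which 53 passed the filter. In the libraries labelled si-Itgb6, 7 fell and 0 rose by the criteria above, where 5.2% of all genes tested were called lower, and 3 of them had an edgeR adjusted p under 0.05. Their median log2 fold change was -0.071, against 0.000 for all genes tested.

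Among core proteins that carry the chains, 3 of the 12 tested fell and 9 did not pass, where 5.2% of all genes tested were called lower. The GC content of these 3 was 59.1% to 60.9%, and 14.9% of genes with 58% to 62% GC were called lower. Hspg2, which encodes the basement membrane proteoglycan perlecan, had CPM values of 184 and 158 in the libraries labelled si-NC and 136 and 118 in those labelled si-Itgb6, and fell by 0.43 on the log2 scale (SE 0.07, edgeR adjusted p = 0.000338). Col18a1, the basement membrane collagen that gives endostatin, fell by 0.33 (SE 0.05, edgeR adjusted p = 0.000264), from CPM values of 336 and 316 to 265 and 253. Both lay apart between groups, Col18a1 by more than the spread within either group, whereas the si-NC replicates of Hspg2 differed by more than the nearest libraries of the 2 groups. Gpc1, a lipid-anchored glypican, had CPM values of 20.3 and 20 against 13.3 and 16.9, with a log2 fold change of -0.42 (SE 0.13, edgeR adjusted p = 0.0672), and was not called without si-Itgb6 replicate 1 (-0.26). The Gpc1 exons overlap Ankmy1 on the opposite strand. Sdc4, a transmembrane syndecan and the core protein with the highest level (117 FPKM), had a log2 fold change of -0.17 (SE 0.05, edgeR adjusted p = 0.0595). After removal of the GC and length trends Hspg2 was still called at -0.31, but Col18a1 at -0.17 and Gpc1 at -0.27 were not.

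Of the 8 lysosomal enzymes that break the chains down, all passed the filter and 3 fell, where 5.2% of all genes tested were called lower. Naglu has a GC content of 59.8%, and 14.9% of genes with 58% to 62% GC were called lower. Idua (54.2%) and Sgsh (56.3%) lie in the range of 54% to 58% GC, where 8.85% were. Naglu, the alpha-N-acetylglucosaminidase, had CPM values of 24.9 and 19.5 in the libraries labelled si-NC and 13.6 and 15.4 in those labelled si-Itgb6, with a log2 fold change of -0.61 (SE 0.14, edgeR adjusted p = 0.00566). The si-NC replicates of Naglu differed by more than the nearest libraries of the 2 groups, and without si-NC replicate 2 its log2 fold change was -0.42. Idua, the iduronidase, had a log2 fold change of -0.62 (SE 0.20, edgeR adjusted p = 0.0679) and Sgsh, the N-sulfoglucosamine sulfohydrolase, one of -0.50 (SE 0.17, edgeR adjusted p = 0.0914). These 3 remained called after removal of the GC and length trends, at -0.48 for Naglu, -0.55 for Idua and -0.39 for Sgsh, and Sgsh was not called without si-NC replicate 2 (-0.39). Exons of Idua overlap Dgkq and Slc26a1, and those of Sgsh overlap Card14, on the opposite strand. Hgsnat, the acetyltransferase of the same pathway, had a level of 9.2 FPKM and a log2 fold change of -0.07 (SE 0.12).

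No gene passed the criteria in the remaining lists, apart from Chst14. This dermatan 4-O-sulfotransferase had CPM values of 4.11 and 3.01 against 1.62 and 1.7, with a log2 fold change of -1.10 (SE 0.33, edgeR adjusted p = 0.0519), and was not called without si-NC replicate 2 (-0.86). It was the 1 gene called of 11 tested for chondroitin and dermatan sulfate, where 5.2% of all genes tested were called lower. The best expressed members of this list, Chsy1 (1.62 FPKM) and Chpf (1.39 FPKM), were low. The 4 tested linker enzymes had log2 fold changes near 0, such as 0.00 (SE 0.12) for the glucuronosyltransferase B3gat3 and -0.08 (SE 0.09) for the xylose kinase Fam20b, whose levels were 15.2 and 12.4 FPKM. B3galt6, the second galactosyltransferase of the linker, had 5 and 2 counts in the libraries labelled si-NC and 0 and 5 in those labelled si-Itgb6 and was not tested.

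Isoenzymes of chain synthesis and sulfation gave 0 calls among 7 tested, with a median log2 fold change of 0.229, 5 values being positive and 2 negative. Some rested on few counts, such as Ndst3 (7 to 15 counts, -0.13, SE 0.63) and Hs3st3a1 (6.34 to 19.21 counts, 0.51, SE 0.62). Hs6st2, with the highest level of this list at 6.89 FPKM, had CPM values of 28.3 and 26.9 in the libraries labelled si-NC and 33.8 and 30.9 in those labelled si-Itgb6, a log2 fold change of 0.23 (SE 0.11, edgeR adjusted p = 0.234) that contrasts in sign with Hs6st1. The GC content was 45.2% for Hs6st2 and 57.7% for Hs6st1. With GC and length trends removed, Hs6st2 was at 0.21 and Hs6st1 at -0.14, and neither was called. Hs3st6, a 3-O-sulfotransferase, followed at 4.2 FPKM with a log2 fold change of -0.27 (SE 0.23). Ndst4, Hs6st3, Hs3st2 and Hs3st5 had 0 counts in all libraries, as had Sulf1 and Hpse2 among the 4 genes of extracellular editing, where Hpse (heparanase, 13.2 FPKM) had a log2 fold change of -0.02 (SE 0.09). Donor supply gave 0 calls among 10 tested, its best expressed genes being Ugp2 (117 FPKM, log2 fold change -0.12, SE 0.06) and Ugdh (52.4 FPKM, log2 fold change 0.04, SE 0.06), which make UDP-glucose and UDP-glucuronic acid.

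**Figure D4:**
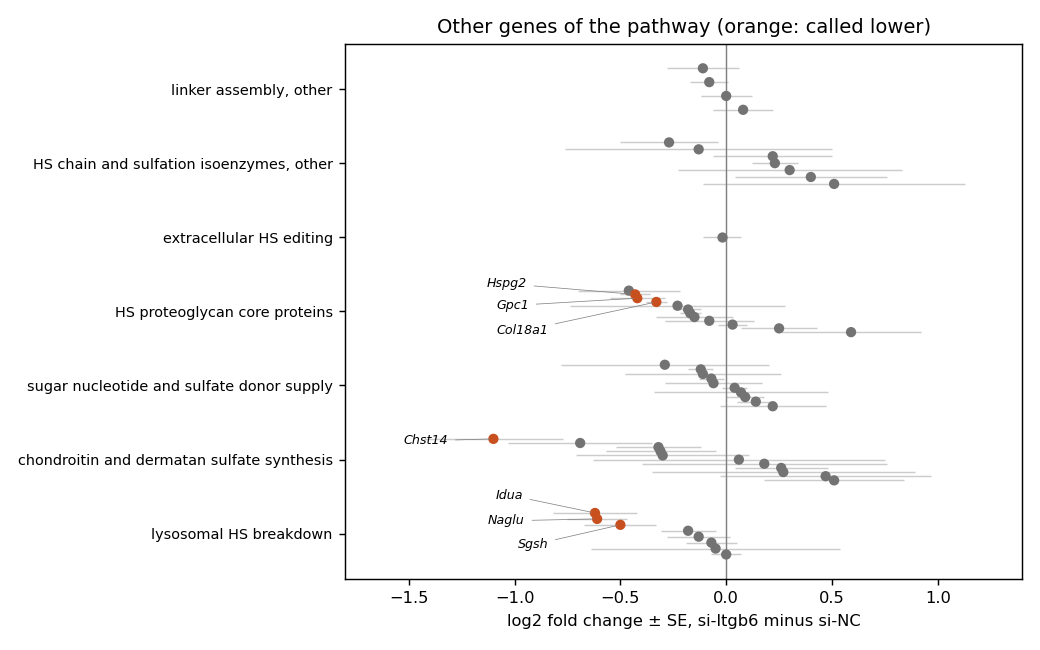
Log2 fold change (si-Itgb6 minus si-NC, with SE) of the 53 tested genes in the 7 further lists of the pathway, 1 point per gene; orange points are the 7 genes called lower. The orange points are 3 core proteins, 3 lysosomal enzymes and Chst14, and no gene was called higher.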

How the data were processed

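Expression was measured by RNA-sequencing in 2 libraries per group. Polyadenylated RNA was enriched and read as non-stranded pairs. Estimated counts per gene were deposited by the authors without normalisation, and 1447 to 1500 genes a library had values that were not whole; the aligner, counter and genome build are not given in the sources used here. The authors also deposited FPKM values, scaled by library and by an effective length that varies between libraries, and these were used for levels only. Other replicate numbers were not analysed here. The study's methods describe a cluster analysis, after which the samples to be analysed were optimised. Whether libraries were left out at that step is not stated, and its bearing on the spread within groups was not tested.

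Counts were rounded. Genes were filtered with filterByExpr (minimum count 10, minimum total 15), scaled by TMM and tested with edgeR 4.0.16 (R 4.3.3) quasi-likelihood fits over the 4 libraries, with Benjamini-Hochberg adjustment over 11727 genes. A call required both a fold change beyond 1.2 and a raw p below 0.05, following the study. With 15435087 to 17220285 counts per library and a common biological coefficient of variation of 0.0551, the chi-square between replicates, per gene, was 3.15 for si-NC and 4 for si-Itgb6, more than counting noise gives. GC content, gene positions and overlaps came from GENCODE vM21 on GRCm38, and promoters from RefSeq. Trends on GC and length were removed as lowess offsets (span 0.3). Scripts were tested on simulated data. Alternatives were DESeq2 1.42.0, other scaling and filters, an adjusted p, GC and length offsets, CPM per kilobase of exon for levels, and each library left out.

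The members and lists were chosen with earlier results of these data known. Named were all 10 enzymes, Itgb6, and of each further list the genes called and the 2 with the highest level per length, apart from 1 result that is not reported here. B3galt6, the markers quoted and the genes at 0 counts were named after their values were seen.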

Additional observations from a re-analysis of the deposited data

How the results depend on the processing

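Genes called numbered 512 higher and 610 lower. DESeq2 called 320 higher and 383 lower, and an adjusted p under 0.05 left 247 higher and 295 lower. Leaving out each library in turn gave 338 to 645 higher and 402 to 768 lower, the lowest counts without si-NC replicate 2; the lone library of a group is then assumed to vary like the others. Of the enzymes, 4 were called lower, and 2 with GC and length trends removed. Both counts come from the contrast on which the enzymes were chosen. Their median log2 fold change lay between -0.239 and -0.166 with each library left out. Without si-NC replicate 2, Extl3 was at -0.27, Ndst1 at -0.14 and Hs6st1 at -0.21. Of the further pathway genes 7 were called lower, 3 by adjusted p, and 0 to 2 were called higher with each library left out. The mean level of Ext1 relative to that of Xylt2 was 7.08 by FPKM and 3.48 as CPM per kilobase of all exons. On the latter scale the means kept their order except that Hs6st1 stood above Ndst1. Single libraries did not all keep it. Ext2 had 7.69 and 7.74 against 6.3 and 6.2 for Glce in the libraries labelled si-NC. In those labelled si-Itgb6 Glce stood higher, at 7.12 and 7.37 against 6.52 and 6.88 for Ext2. The lengths differ by construction. No log2 fold change of a named gene that was called changed sign, and no scaling moved the median of all genes by over 0.1. No paired analysis was possible because the groups share only 1 replicate number. With 0 to 1 counts a library, a change in Xylt1 was not detectable at this depth.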
